A study of Mus musculus with 7 samples.

Results

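B cell identity genes are the transcription factors, receptors and kinases by which a B lymphocyte is recognized. 9 of them were chosen by name (Pax5, Ebf1, Cd79a, Cd79b, Cd22, Ms4a1, Fcer2a, Cr2 and Blk), and 8 were read among the 23930 amplicons of the panel. The level of Cd79a was not analysed here. All 8 were among the 13080 genes tested, which had at least 1 RPM in at least 3 mice. RPM are reads per 1000000 reads on the panel of 1 amplicon per gene, with no correction for length, so levels were compared between mice and not between genes. The tissue was the mammary gland on the side opposite an incident tumor, fixed in formalin and embedded in paraffin, with 1 library per mouse from consecutive sections. The 3 control mice (mice 1, 2 and 3) were Blg-Cre;Brca1f/f;Trp53+/-, and the 4 HMMRTg/Tg mice (mice 7, 8, 9 and 11) were Blg-Cre;HMMRTg/Tg;Brca1f/f;Trp53+/-. All were parous and of mixed background, and the labels call the genotypes matched for age, though tissue was taken when a mouse had a tumor. The Blg-Cre driver acts in mammary epithelium during lactation, so that floxed Brca1 exons are deleted and the human HMMR transgene in Rosa26 is switched on there, whereas every cell is heterozygous for Trp53. The study used these tissues to ask whether cell division and the immune microenvironment differ between the genotypes before a tumor forms in the gland. Libraries held 5532358 to 9345915 reads, so that a count of 0 allows up to 3 reads, or 0.321 to 0.542 RPM, and intervals on reads cover counting error only.

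B lymphocytes are made in bone marrow, where Ebf1 and then Pax5 commit progenitors to the lineage and switch on the antigen receptor and its co-receptors. Mature B cells circulate and settle in the follicles of lymph nodes and spleen. The inguinal fat pad of the mouse mammary gland holds a lymph node, and the tissue outside it holds scattered lymphocytes. Which gland was sectioned, and whether a node was in the section, is not given in the sources used here. In bulk tissue, fewer B cells and less RNA per B cell cannot be told apart.

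Sequences before the transcription starts of 6 of the 9 members were found in RefSeq (GRCm38.p6). They were searched on both strands for a palindromic site of EBF1 (TCCC, any 2 bases, then GGGA), the octamer (ATGCAAAT) bound by Oct factors, and an Ets core (GGAAGT). The ends of the EBF1 letters can overlap an Ets core, but no member promoter held both. The members had 9 listed starts, of which 1 held the EBF1 letters, 0 the octamer and 4 the Ets core, beside 0.779%, 1.60% and 19.7% of 32851 mouse promoters. A match describes letters in this window and no binding. The 4 members below were picked from those that had the widest range between mice or hold a match, with matches in capitals. Cd79a and Ebf1 also hold an Ets core and are not shown. Each sequence is the 250 bases before a listed start, 5′ to 3′ on the minus strand.
Pax5 (chr4:44710695-44710944): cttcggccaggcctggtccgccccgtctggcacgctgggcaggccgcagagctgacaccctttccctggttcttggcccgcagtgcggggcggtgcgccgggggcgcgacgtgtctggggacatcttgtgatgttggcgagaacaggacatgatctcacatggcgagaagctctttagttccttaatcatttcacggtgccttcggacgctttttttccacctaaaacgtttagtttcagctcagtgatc
Cd22 (chr7:30879029-30879278): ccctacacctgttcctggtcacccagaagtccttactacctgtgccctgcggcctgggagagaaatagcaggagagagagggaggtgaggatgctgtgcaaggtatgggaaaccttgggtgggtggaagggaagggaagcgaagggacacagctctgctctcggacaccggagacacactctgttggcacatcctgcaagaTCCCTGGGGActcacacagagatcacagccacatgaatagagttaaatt
Fcer2a (chr8:3694175-3694424): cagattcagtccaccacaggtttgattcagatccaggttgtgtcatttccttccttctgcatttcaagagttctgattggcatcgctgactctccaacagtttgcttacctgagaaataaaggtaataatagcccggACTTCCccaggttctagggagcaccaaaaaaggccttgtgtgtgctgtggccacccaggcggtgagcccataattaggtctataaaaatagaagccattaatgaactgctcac
Cr2 (chr1:195176720-195176969): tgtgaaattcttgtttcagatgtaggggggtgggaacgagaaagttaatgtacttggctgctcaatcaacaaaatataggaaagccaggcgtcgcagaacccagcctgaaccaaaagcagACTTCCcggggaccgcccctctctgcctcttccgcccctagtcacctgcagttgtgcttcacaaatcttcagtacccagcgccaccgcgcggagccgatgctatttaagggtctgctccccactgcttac
The capitals of Cd22 are the EBF1 letters, 49 to 40 bases before the start, and those of Fcer2a and Cr2 are the Ets core on the other strand. The listed start of Cd22 is inside the gene span given below, so that this window and its match lie within the gene. The window of Cr2 overlaps the end of its gene span, and its match lies in the overlap. Fcer2a had 3 listed starts, and the first is shown. Pax5 held none of the 3 motifs in this window, and Ebf1 held an Ets core at 1 of its 2 starts.

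Transcripts of 7 members, all but Ebf1, were higher in mice 1, 3, 7 and 8 than in mice 2, 9 and 11. Each genotype thus held mice of high and of low level. Cr2 and Blk stood on few reads even in the mice of high level, down to 12 for Cr2 and 32 for Blk. Their summed level was 888, 16.1 and 981 RPM in control mice 1, 2 and 3, and 863, 346, 36.3 and 36.6 RPM in HMMRTg/Tg mice 7, 8, 9 and 11. The highest mouse was 60.8-fold above the lowest, and both were control mice. Mouse 8 lay between the other mice of high level and the 3 of low level.

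**Figure D1:**
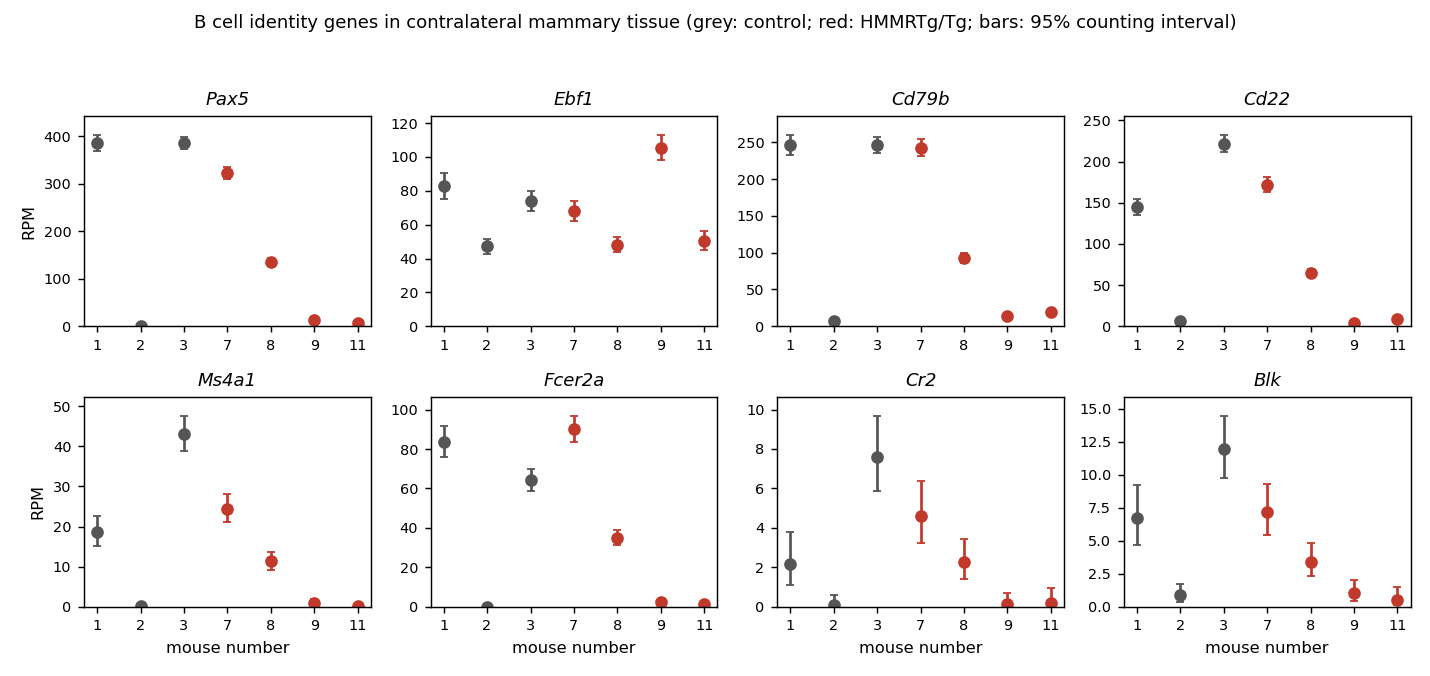
Level of each B cell identity gene (RPM, linear axis from 0) in each mouse, control mice in grey and HMMRTg/Tg mice in red, with 95% Poisson intervals. Mice 2, 9 and 11 lie near 0 in every panel except that of Ebf1, which is highest in mouse 9 at 105 RPM.

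Pax5, the transcription factor that commits progenitors to the B lineage and keeps them in it, lies on chromosome 4 from 44524748 to 44710694. Levels were 386, 1.55 and 386 RPM in control mice 1, 2 and 3. HMMRTg/Tg mice 7, 8, 9 and 11 had 323, 137, 12.9 and 6.53 RPM. Control mice 1 and 3 were nearly equal, while control mouse 2, with 14 reads, was the lowest of all mice. The highest control mouse was thus 250-fold above the lowest, and the highest HMMRTg/Tg mouse 49.4-fold above the lowest. Group means were 258 ± 222 RPM (SD, n = 3) in control mice and 120 ± 148 RPM (SD, n = 4) in HMMRTg/Tg mice, and the ranges overlapped.

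Cd79b, a signaling chain of the B cell antigen receptor (chromosome 11, 106311341 to 106314562), separated the same mice into high and low levels. Levels were 246, 6.96 and 246 RPM in control mice 1, 2 and 3, and at 243, 92.6, 14.6 and 19.1 RPM in HMMRTg/Tg mice 7, 8, 9 and 11. Mice 1, 3 and 7 thus carried nearly the same level across genotypes, and the 3 mice of low level were not at 0, with 63 to 114 reads each. The means were 166 ± 138 RPM (SD, n = 3) and 92.2 ± 106 RPM (SD, n = 4). Cd22, an inhibitory lectin receptor that restrains antigen receptor signaling (chromosome 7, 30865404 to 30880342), was read at 145, 6.51 and 222 RPM in control mice. HMMRTg/Tg mice 7, 8, 9 and 11 had 172, 64.7, 4.48 and 8.87 RPM. The highest mouse was here control mouse 3, and the lowest was HMMRTg/Tg mouse 9 in place of control mouse 2.

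Fcer2a encodes CD23, the low-affinity IgE receptor of mature follicular B cells (chromosome 8, 3680280 to 3694174). Reads gave 83.5, 0 and 64.2 RPM in control mice 1, 2 and 3, and at 90.0, 34.9, 2.17 and 1.34 RPM in HMMRTg/Tg mice 7, 8, 9 and 11. Control mouse 1 was at least 252-fold above control mouse 2, whose count of 0 allows 3 reads, or 0.331 RPM. Ms4a1 encodes CD20, a membrane protein of mature B cells (chromosome 19, 11249679 to 11266149). Its level was 18.6, 0.11 and 43.0 RPM in control mice 1, 2 and 3, and at 24.5, 11.3, 1.02 and 0.167 RPM in HMMRTg/Tg mice 7, 8, 9 and 11. Mice 2 and 11 stood on 1 read each, so their order is not resolved.

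Cr2 encodes the complement receptors CD21 and CD35 of mouse B cells and follicular dendritic cells (chromosome 1, 195136811 to 195176880). Its level was 2.17, 0.11 and 7.60 RPM in control mice 1, 2 and 3, and at 4.61, 2.25, 0.128 and 0.167 RPM in HMMRTg/Tg mice 7, 8, 9 and 11. Mice 2, 9 and 11 had 1 read each, and mouse 1, with 12 reads, had the lowest level among the other mice. Blk, a Src family kinase of B cells (chromosome 14, 63372837 to 63417187), was read at 6.69, 0.883 and 11.9 RPM in control mice 1, 2 and 3. In HMMRTg/Tg mice 7, 8, 9 and 11 it was read at 7.17, 3.42, 1.02 and 0.502 RPM. The same 3 mice were lowest, with 3 to 8 reads, and their counting intervals overlapped.

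Ebf1, the transcription factor that acts upstream of Pax5 (chromosome 11, 44618100 to 45008096), was the exception. It was read at 82.6, 47.1 and 74.0 RPM in control mice 1, 2 and 3, and at 67.9, 48.0, 105 and 50.4 RPM in HMMRTg/Tg mice 7, 8, 9 and 11. The highest mouse was mouse 9, which was among the lowest for the other members, and the means were 67.9 ± 18.5 RPM (SD, n = 3) and 67.9 ± 26.5 RPM (SD, n = 4). Ebf1 is also known from adipocytes and stromal cells of fat. The summed level of 10 adipocyte markers ranged over 5380 to 9781 RPM among the controls and over 6310 to 17798 RPM among the HMMRTg/Tg mice, with mouse 9 highest. Mouse 9 was the highest mouse in 8 of the 10 markers, and also in 5 of 6 endothelial markers. Mouse 1, at 82.6 RPM of Ebf1, was highest in 0 and lowest in 1 of the adipocyte markers. Mouse 2 was lowest in 6 of them. It was also lowest for Ebf1, but its counting interval there overlapped those of mice 8 and 11. The part of fat in the level of Ebf1 was not tested.

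The spread between mice of 1 genotype was among the widest on the panel for 5 members. The SD within genotype of log2(RPM + 1) was 3.32 for Pax5 and 3.04 for Fcer2a, which ranked 2 and 3 among 13080 genes, whose median was 0.411. Cd22 (2.47), Ms4a1 (2.40) and Cd79b (2.32) ranked 17, 18 and 21. Cr2 (1.29) and Blk (1.25), the members with fewest reads, ranked 180 and 202, and Ebf1 (0.48) ranked 5079. Only Cst6, which encodes a cysteine protease inhibitor of epithelium, had a wider spread than Pax5. Control mice alone had a median SD of 0.426 over all genes tested, and HMMRTg/Tg mice of 0.344.

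**Figure D2:**
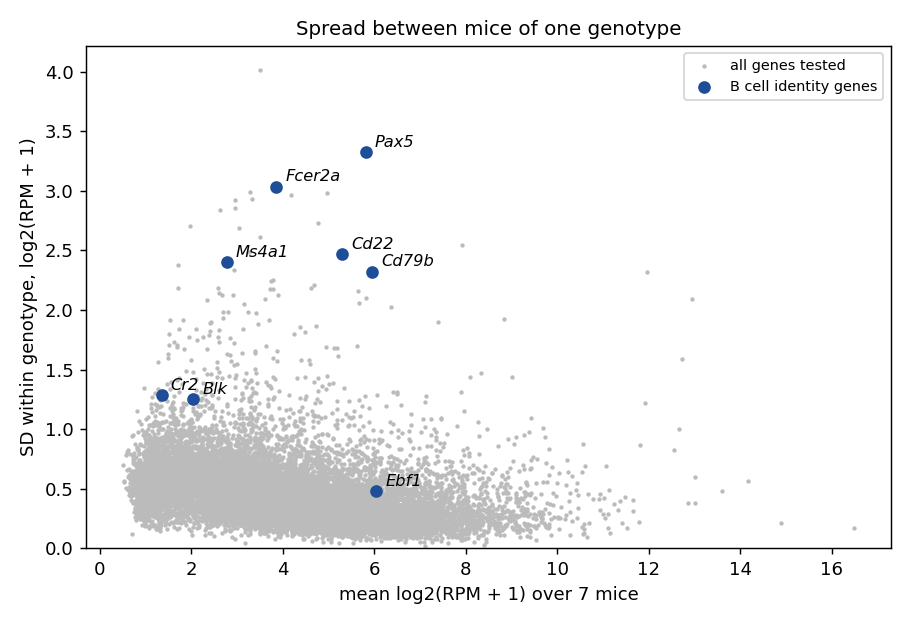
SD within genotype against mean level over 7 mice, both of log2(RPM + 1), for each of the 13080 genes tested (grey) and the 8 members (blue). Pax5 and Fcer2a lie at the top with SD of 3.32 and 3.04, and Ebf1, at 0.48, lies within the bulk of genes.

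In the comparison of the genotypes, 0 of 8 members were called by limma at an adjusted p under 0.05 (Benjamini-Hochberg over all genes tested), beside 0.405% of all genes tested. At an unadjusted p under 0.05 the count was 0 of 8 as well, beside 9.71% of all genes in either direction and 3.22% lower, and edgeR and DESeq2 on the recovered reads called 0. The 8 log2 fold changes, HMMRTg/Tg over control on the log2(RPM + 1) scale, were all negative, as were 38.8% of those of all genes. Their median was −0.62 beside 0.11 over all genes tested. Cd22 had the largest difference, with a log2 fold change of −1.16 (standard error 1.31, 95% interval −4.06 to 1.74, adjusted p = 0.814 from limma). Pax5 had a log2 fold change of −0.64 (standard error 1.76, 95% interval −4.53 to 3.24, adjusted p = 0.936 from limma). Ebf1, with the narrowest interval, had a log2 fold change of −0.03 (standard error 0.30, 95% interval −0.70 to 0.64, adjusted p = 0.982 from limma). For the other 5 members log2 fold changes were −0.92 to −0.49, with adjusted p of 0.749 to 0.948 from limma. The intervals of Pax5, Cd79b and Fcer2a reach beyond a 4-fold difference in either direction, so that differences of that size in these 3 genes are not excluded. Those of Cd22, Ms4a1, Blk and Cr2 reach down to −4.06, −3.78, −2.42 and −2.13. In these 4 genes a level lower by more than 4-fold in HMMRTg/Tg mice is thus not excluded.

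The direction of the difference rested on single mice for 6 members, whereas Cd22 and Blk were negative whichever mouse was left out. Without control mouse 2, Pax5 had a log2 fold change of −3.06 and Cd22 of −2.69, and 5 of 8 members (Pax5, Cd79b, Ms4a1, Cd22 and Blk) had an unadjusted p under 0.05, while 0 were called after adjustment (lowest adjusted p = 0.371 from limma). Without control mouse 3, 6 of 8 were positive, without control mouse 1, 4 of 8, without HMMRTg/Tg mouse 11, 3 of 8, and without HMMRTg/Tg mouse 8 or 9, 1 of 8.

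**Figure D3:**
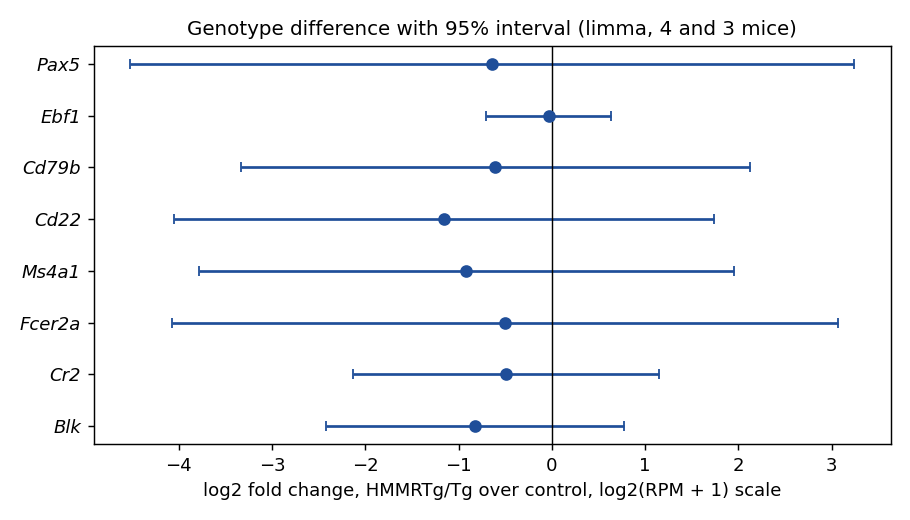
Log2 fold change of each member, HMMRTg/Tg over control, with its 95% interval from limma (4 and 3 mice). All 8 points lie left of 0, and every interval includes 0, from −4.53 to 3.24 for Pax5 and from −0.70 to 0.64 for Ebf1.

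How far the members moved together was described by the order of the mice, since the 7 mice fell into separate sets, over which a correlation would measure only the gap. In 7 of 8 members mice 1, 3, 7 and 8 all lay above mice 2, 9 and 11, beside 3.81% of all genes tested. In the same 7 the lowest of the former was at least 2-fold above the highest of the latter, beside 0.535%. The order was taken from the members themselves, so these counts are descriptions. The gap was 3.35-fold for Blk, 4.85-fold for Cd79b, 7.30-fold for Cd22, 10.6-fold for Pax5, and 11.1-fold for Ms4a1. For Fcer2a it was 34.9 RPM in mouse 8 against 2.17 RPM in mouse 9, and for Cr2 it stood on 12 reads in mouse 1 against 1 read in mouse 11, so that its size is not resolved. The counts remained 7 of 8 under TMM factors and quantile normalization. Among mice 1, 3, 7 and 8, mouse 8 was lowest in all of the 7 but Cr2, and mouse 3 was highest in Cd79b, Cd22, Ms4a1, Cr2 and Blk.

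The members did not keep a fixed proportion to each other. Cd79b was taken as the reference after its values were seen, because it had at least 63 reads in each mouse. Pax5 gave 1.57, 1.57, 1.33 and 1.48 reads per Cd79b read in mice 1, 3, 7 and 8. It gave 0.222, 0.886 and 0.342 in mice 2, 9 and 11, and the exact 95% intervals of the former (1.25 to 1.68) and the latter (0.115 to 1.17) do not overlap. Fcer2a gave 0.339, 0.261, 0.371 and 0.377 reads per Cd79b read in mice 1, 3, 7 and 8, and 0, 0.149 and 0.0702 in mice 2, 9 and 11, where the intervals reach 0.0603, 0.249 and 0.143. The ratio of Pax5 was thus lower in each mouse of low level. That of Fcer2a was lower beyond counting error in mice 2 and 11, while the interval of mouse 9 overlapped that of mouse 3, which starts at 0.237. Cd22 gave 0.589, 0.901, 0.708 and 0.699 reads per Cd79b read in mice 1, 3, 7 and 8. In mice 9 and 11 it was below these, at 0.307 (0.204 to 0.452) and 0.465 (0.329 to 0.649), but not in mouse 2, at 0.937 (0.645 to 1.36). Only mouse 9 was lower beyond counting error, since the interval of mouse 11 overlapped those of mice 1 (0.539 to 0.643) and 8 (0.629 to 0.777). Blk gave 0.0272 to 0.0485 reads per Cd79b read in mice 1, 3, 7 and 8. In mice 2, 9 and 11 the ratio of Blk was 0.127, 0.0702 and 0.0263, on 8, 8 and 3 reads of Blk. Ebf1 gave 0.280 to 0.519 reads per Cd79b read in mice 1, 3, 7 and 8, and 6.78, 7.23 and 2.64 in mice 2, 9 and 11.

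**Figure D4:**
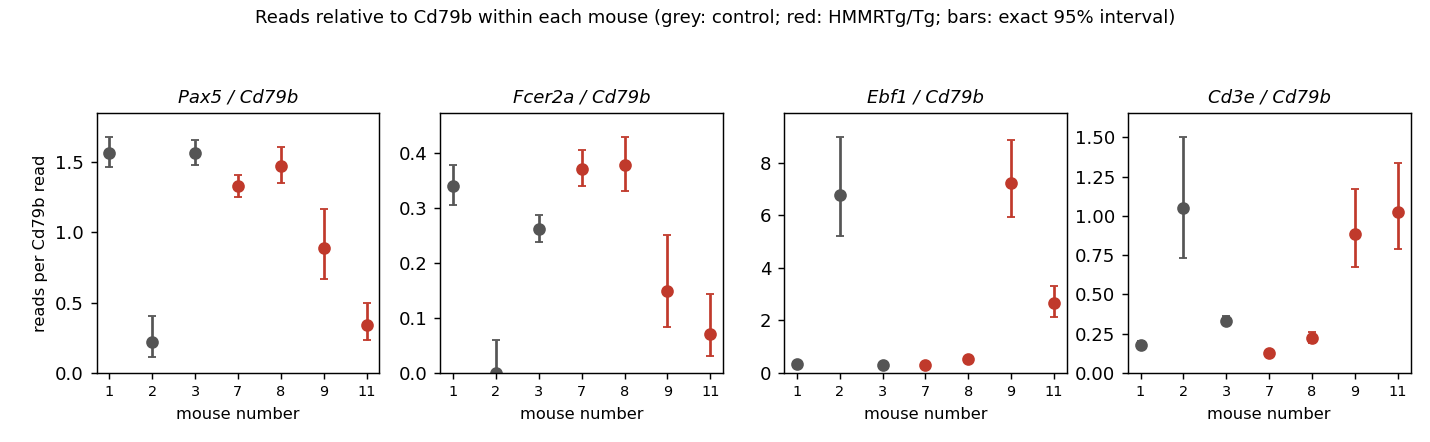
Reads of Pax5, Fcer2a, Ebf1 and the T cell gene Cd3e per read of Cd79b in each mouse (linear axes from 0, control grey, HMMRTg/Tg red, bars exact 95% intervals). The ratios of Pax5 and Fcer2a are lower and those of Ebf1 and Cd3e higher in mice 2, 9 and 11 than in the other mice, with overlapping bars for Fcer2a in mice 9 and 3.

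Other genes of the B lineage showed the pattern in part. Of 30 listed genes, 28 were read. Mice 1, 3, 7 and 8 lay above mice 2, 9 and 11 in 21 of the 28, in 12 of them by at least 2-fold. These counts include genes below the level for testing, among them Vpreb3, on 1 read in mouse 1 against 0 in mice 2, 9 and 11. Of the 25 genes tested, 19 had the order, beside 3.81% of all genes tested. The order was not resolved in all of these, since Cd37 had a gap of 1.01-fold, with overlapping counting intervals. Fcmr, the Fc receptor for IgM, was read at 216, 2.43 and 156 RPM in control mice 1, 2 and 3, and at 103, 39.3, 4.09 and 3.51 RPM in HMMRTg/Tg mice 7, 8, 9 and 11. Cd180, a Toll-like receptor relative of B cells and myeloid cells, was read at 297, 43.5 and 255 RPM in control mice 1, 2 and 3, and at 186, 89.1, 58.6 and 61.6 RPM in HMMRTg/Tg mice 7, 8, 9 and 11. Its gap between the sets was 1.45-fold, against 9.60-fold for Fcmr. The 7 genes without that order were Syk, Lyn, Blnk, Plcg2, Pou2f2, Bach2 and Ralgps2. Lyn stood on 1 to 12 reads per mouse, so its order is not resolved. Nor is that of Pou2f2, with 7 and 10 reads in mice 1 and 7 against 12 in mouse 9 and overlapping counting intervals. Syk and Blnk missed the order only in that mouse 8 lay below mouse 9, with overlapping counting intervals. Blnk, the adaptor between the antigen receptor and its effectors, was read at 31.1 RPM in mouse 2 and at 67.8 to 217 RPM in the other mice. Of 25 genes of the list that were tested between genotypes, 0 were called higher and 0 lower by limma (0 and 0 also at an unadjusted p under 0.05, in edgeR and in DESeq2), with a median log2 fold change of −0.54.

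The 10 genes whose levels over 7 mice were most like the mean of the members' standardized log2 values, by Pearson's r among 8955 genes with a mean log2(RPM + 1) of at least 3, were Rhof, Tnfrsf13c, Rnase6, Bank1, Pou2af1, Ciita, 5430427O19Rik, Slamf7, Tox and H2-Ob. Their r was 0.982 to 0.995, beside a median of 0.0727 over the genes compared, and it is set largely by the gap between the sets of mice. Tnfrsf13c, the receptor for the B cell survival factor BAFF, was read at 110, 3.20 and 118 RPM in control mice 1, 2 and 3. It was read at 70.6, 29.4, 7.16 and 4.69 RPM in HMMRTg/Tg mice 7, 8, 9 and 11. Ciita, the coactivator of MHC class II genes, had a narrower range, from 14.9 RPM in mouse 2 to 84.4 RPM in mouse 3. Tnfrsf13c, Bank1, Pou2af1 and H2-Ob were in the list of other B lineage genes.

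Markers of a lymph node went with the members only in part. Cxcl13, the chemokine of follicular stroma that draws B cells, was read at 1126, 41.3 and 481 RPM in control mice 1, 2 and 3, and at 369, 129, 103 and 33.6 RPM in HMMRTg/Tg mice 7, 8, 9 and 11. Its order was that of the members, but mouse 8 lay only slightly above mouse 9. Marco, a scavenger receptor of sinus and marginal zone macrophages, was read at 43.0, 0.331 and 18.8 RPM in control mice 1, 2 and 3, and at 15.0, 7.17, 0.256 and 0.502 RPM in HMMRTg/Tg mice 7, 8, 9 and 11. Marco thus separated the mice as the members did, with mouse 1 highest. The other 5 of 7 markers read did not have that order, but in 3 of them (Il7, Chst4 and Fut7) the order is not resolved. Il7 missed it only in that mouse 8, at 5.35 RPM, lay below mouse 2, at 5.85 RPM, with overlapping counting intervals. Madcam1, an addressin of venules, was read at 15.7 RPM in mouse 8 and at 19.3 and 21.9 RPM in mice 2 and 11, and at 2.69 to 7.59 RPM in the others. Siglec1, of sinus macrophages and other macrophages, was read at 180, 63.1 and 84.3 RPM in control mice 1, 2 and 3 and at 43.8 to 77.7 RPM in HMMRTg/Tg mice. Chst4 and Fut7, which make the ligands for lymphocyte entry in high endothelial venules, were at or below 1.28 RPM in all mice. They stood on 12 reads or fewer in each mouse. An amplicon near 0 does not show that its transcript was absent, since C1qa was read at 0 in 6 of 7 mice while C1qb, which encodes another chain of the same complement protein, was read at 77.1 to 189 RPM. Of 5 markers tested 0 were called by limma, and Siglec1 alone had an unadjusted p under 0.05 (log2 fold change −0.79, adjusted p = 0.486), while edgeR and DESeq2 called 0. Ccl19 and Ccl21a were not analysed here.

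Germinal center and plasma cell genes did not separate the mice in the same way. Of 6 germinal center markers 1, Gcsam, had the order of the members. It had it only by 2.57 RPM in mouse 8 against 2.56 RPM in mouse 9, with overlapping counting intervals, so its order is not resolved. Plasma cell markers summed to 322 to 432 RPM among the controls and 284 to 432 RPM among the HMMRTg/Tg mice, a 1.52-fold range. Most of each sum was Xbp1 and Jchain, so the sum says little of the other markers. Xbp1 was read at 60.7, 265 and 176 RPM in control mice 1, 2 and 3. HMMRTg/Tg mice 7, 8, 9 and 11 had 153, 286, 200 and 138 RPM of Xbp1. Of the 8 markers 1, Mzb1, had the order, and it ranged from 7.62 RPM in mouse 2 to 58.4 RPM in mouse 3. Jchain, the joining chain of secreted antibodies, was read at 171, 110 and 141 RPM in control mice 1, 2 and 3, and at 133, 96.4, 81.5 and 107 RPM in HMMRTg/Tg mice 7, 8, 9 and 11. Mouse 2, with the lowest Pax5, was thus within the range of the other mice in Jchain.

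T cell markers went with the members in part. Their summed level was 904, 153 and 997 RPM in control mice 1, 2 and 3, and 337, 292, 177 and 212 RPM in HMMRTg/Tg mice 7, 8, 9 and 11. In 10 of 16 markers mice 1, 3, 7 and 8 lay above the other mice, though in only 1 by at least 2-fold. The order was not resolved in all of these. Cd8b1 and Cd3e had gaps of 1.03-fold and 1.05-fold, with overlapping counting intervals. Mouse 7, level with control mice 1 and 3 in Cd79b, lay above control mouse 1 in 6 of 16 T cell markers and above control mouse 3 in 0. In Tcf7, a transcription factor of T cells and the marker of highest level, it had 134 RPM against 587 and 481 RPM in control mice 1 and 3, and in Bcl11b, another, 25.7 RPM against 21.5 and 47.9 RPM. Cd3e, a chain of the T cell receptor complex, gave 0.128 to 0.331 reads per Cd79b read in mice 1, 3, 7 and 8, and 0.886 to 1.05 in mice 2, 9 and 11. Cd79b was thus scarcer in these 3 mice also relative to Cd3e. Between genotypes, 0 of 16 T cell markers were called by limma after adjustment, and Cd5 alone had an unadjusted p under 0.05 (log2 fold change −0.93, adjusted p = 0.274). On the recovered reads edgeR called 0 T cell markers and DESeq2 called 1, Cd5, lower.

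**Figure D5:**
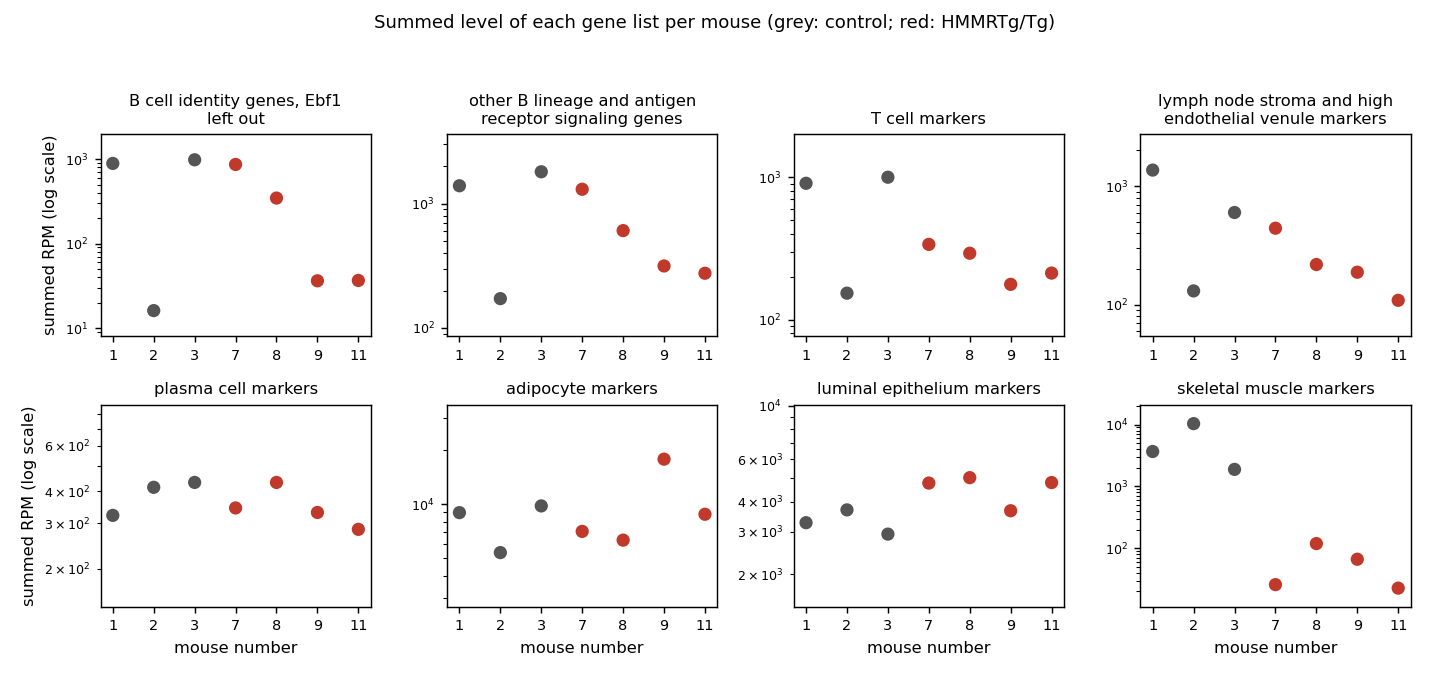
Summed level of 8 gene lists per mouse (RPM on a log axis), control mice in grey and HMMRTg/Tg mice in red. The 7 members span 60.8-fold and T cell markers 6.51-fold with mice 2, 9 and 11 lowest. Plasma cell markers, whose sum is mostly Xbp1 and Jchain, span 1.52-fold and luminal markers 1.71-fold.

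Other tissue varied between the sections too. Skeletal muscle markers summed to 3667, 10355 and 1883 RPM in control mice 1, 2 and 3, but only to between 22.6 and 119 RPM among HMMRTg/Tg mice. Control mouse 2 was thus highest in muscle, and it was lowest in 6 of 8 members. For Ms4a1, Cr2 and Ebf1 among these, its counting interval overlapped those of other mice, so that its place is not resolved. Of 14 muscle markers 12 were called lower in HMMRTg/Tg mice by limma (13 by edgeR and 13 by DESeq2). Of 5 pan-leukocyte markers 4 had the order of the members, 0 of them by at least 2-fold, with sums of 4162, 861 and 4085 RPM in control mice 1, 2 and 3 and of 926 to 1768 RPM among the HMMRTg/Tg mice. Macrophage markers summed to 1465 to 3530 RPM among the controls and 1985 to 2875 RPM among the HMMRTg/Tg mice, and 0 of 11 had the order of the members. Luminal epithelium markers summed to 2937 to 3701 RPM among the controls and 3670 to 5033 RPM among the HMMRTg/Tg mice, so that luminal transcripts were read in each section. Of 12 luminal markers 0 were called by limma (4 higher and 1 lower at an unadjusted p under 0.05), 0 by edgeR and 1, Prlr, lower by DESeq2. The part of these tissues in the levels of the members was not tested.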

How the data were processed

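RNA was extracted from paraffin sections of mammary tissue from the side without the tumor (3 control and 4 HMMRTg/Tg mice) and read with the mouse Ion AmpliSeq panel on an Ion Torrent instrument. For each mouse and amplicon the authors deposited a value that they call TPM, made with the AmpliSeqRNA plug-in. Each mouse sums to 1000000 and the deposited values are whole multiples of 1 read (within 0.05 reads for 100% of values under 1000 reads), so they were used as RPM. Submitters' processing notes name mm10 and Transcriptome Analysis Console. The aligner is not given in the sources used here. Groups came from the sample titles. Symbols turned into dates (27) were restored from amplicon names.

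Genotypes were compared with limma 3.58.1 under R 4.3.3 (lmFit, then eBayes with a trend) on log2(RPM + 1) of the 13080 genes that reached 1 RPM in at least 3 mice, two-sided, with Benjamini-Hochberg adjustment over these genes. Ratios of reads have exact binomial 95% intervals and single levels exact Poisson intervals. Alternatives were pseudocounts of 0.1 and 10, other filters, TMM factors, quantile normalization, no trend, leaving out each mouse, and edgeR 4.0.16 and DESeq2 1.42.0 on recovered reads (277 genes had no adjusted p in DESeq2). Pairs of libraries of 1 genotype differed well beyond sampling noise, with a chi-square of 25.7 to 129.6 per degree of freedom. Labels do not say more of how the mice were sampled, so p-values measure the spread between these mice. Tested on simulated data for this comparison (13080 genes, 200 changed, 5 runs), the share of changes called was 14.3% at 2-fold, 77.9% at 4-fold and 99.7% at 16-fold, and 8.4 calls in each run were false. The changed genes were drawn at random above a minimum level, and the median SD within genotype over all genes was 0.411. These rates do not apply to the 5 members with SD of 2.32 to 3.32, for which the share called was not measured.

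The members and lists were chosen with earlier results of these data known. Genes named outside the members were taken as up to 3 of highest mean per list, those most like the members, and list genes singled out after their values were seen (Fcmr with its gap, Vpreb3, Cd37, Marco, Madcam1, Chst4, Fut7, Il7, Gcsam, Mzb1, Cd3e, Cd8b1, Cd5, Bcl11b, C1qa, Prlr, Cst6 and the B lineage genes without the order). Promoter letters are from RefSeq, GRCm38.p6, the assembly of mm10. Some list genes are not reported here.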

Additional observations from a re-analysis of the deposited data

How the results depend on the processing

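The count of members called was 0 under each of the 16 alternatives, and Cd22 and Blk were negative under each that tested them. The number of all genes called, 53, was 19 with a pseudocount of 10, 1 with no filter on low values, 6 with 1 RPM required in all 7 mice and 266 in DESeq2 (79 higher and 187 lower, beside 5 and 48), and 26 to 65 leaving out each mouse. With 1 RPM in all 7 mice, 4 members were tested. Fcer2a, at 0 in control mouse 2, had a log2 fold change of 0.31 with a pseudocount of 0.1 in place of −0.50. Leaving out each mouse, log2 fold changes were −3.06 to 0.57 for Pax5, −2.26 to 0.22 for Cd79b, −2.49 to 0.16 for Ms4a1, −2.57 to 0.63 for Fcer2a, −1.24 to 0.24 for Cr2 and −0.27 to 0.13 for Ebf1. Cd22 (−2.69 to −0.24) and Blk (−1.62 to −0.23) kept their sign. The planned correlations between members were not run because the mice fell into separate sets. No paired analysis was possible because the genotypes share no mouse numbers. Under TMM factors or quantile normalization, tried for this after seeing the data, 7 members again had the order of mice. Depth limits Ms4a1, Cr2 and Blk in mice 2, 9 and 11, where they stood on 1 to 8 reads. It also limits Fcer2a, which had 0, 17 and 8 reads in these mice.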
